A study of Mus musculus with 22 samples.

Results

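The p53 target genes examined here are Cdkn1a, Trp53inp1, Mdm2, Ccng1, Bax, Phlda3, Sesn2, Zmat3 and Bbc3, together with Trp53, the gene of p53 itself. They were found by exact gene symbol, and the list was chosen with earlier results of these data known. All 10 are among the 15971 genes of the lung table, and 9 are among the 12259 genes of the liver table. Cdkn1a in liver was not analysed here. The RNA came from male C57BL/6J mice, 14 weeks old and fed normal chow, that inhaled benzene at 50 ppm for 6 hours a day, 5 days a week, over 6 weeks, or that breathed air cleaned by carbon and HEPA filters. Benzene is a solvent whose oxidation products can damage DNA. There were 5 benzene and 5 air livers and 6 benzene and 6 air lungs, sequenced as poly-A RNA. The labels number the libraries without tying each to an animal of its own, and the p-values therefore measure the spread between these samples, which may be technical. The comparison asked which transcripts differed in benzene tissue.

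p53 is a transcription factor that is held at a low level by the ubiquitin ligase Mdm2. DNA damage and other stresses release it from Mdm2, largely by modifying and stabilising the protein. It then binds near its target genes and raises their transcription. The targets include genes that stop the cell cycle, genes that start apoptosis, genes of metabolic stress and Mdm2 itself, which closes a feedback loop. RNA data measure the transcripts of the targets, and not the p53 protein.

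Recovered reads ran from 9.71 to 12.71 M in benzene livers, 9.46 to 12.42 M in air livers, 8.40 to 10.02 M in benzene lungs and 8.30 to 11.92 M in air lungs. Levels are the deposited normalized CPM. A change is the benzene mean minus the air mean of log2(CPM + 1), which understates the change of low genes. Each tissue carried its own markers. The 8 hepatocyte genes, led by Alb, the plasma albumin gene, summed to 90795 to 100537 CPM in benzene livers and to 107929 to 114721 CPM in air livers. The 8 lung epithelial genes, led by Scgb1a1 of club cells and Sftpc of alveolar type II cells, summed to 72568 to 101470 CPM in benzene lungs and to 87815 to 190844 CPM in air lungs (106635 CPM at most without air replicate 5). In bulk tissue, fewer cells of a type and less RNA per cell cannot be told apart.

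One lung library, air replicate 5, differed broadly from the rest. It had 894 genes without a read, against 17 to 61 in the other air lungs. In it 26.5% of genes lay over 2-fold from the median of the other 5 air lungs, against 0.229% to 3.18% in the other 11 lung libraries. The p53 genes were spread widely in that library. Mdm2 was at 0.405 of the median of the other air lungs, Trp53 at 0.408, Trp53inp1 at 0.616, Cdkn1a at 0.693 and Ccng1 at 0.779. Bbc3 was at 1.01, Zmat3 at 1.09 and Sesn2 at 1.17, and Phlda3 and Bax were above the others at 1.69 and 2.31. The lung changes of the p53 genes are therefore given with this library and without it.

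**Figure D1:**
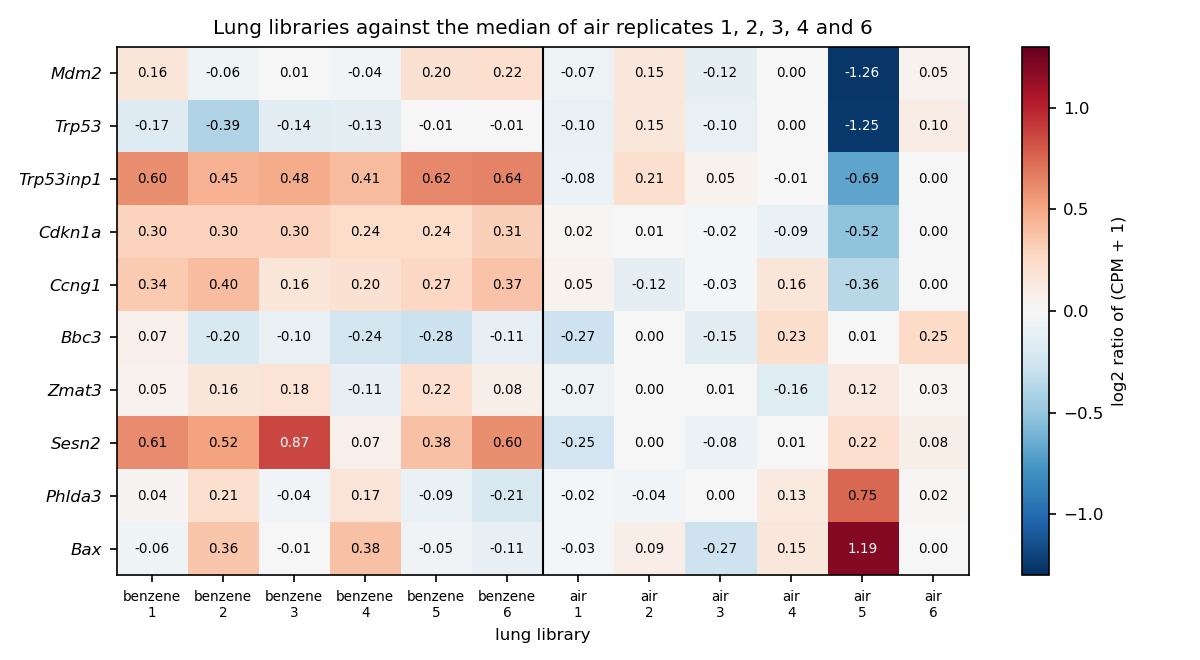
Level of each gene in each lung library as the log2 ratio of (CPM + 1) to the median of air replicates 1, 2, 3, 4 and 6. Colour and the printed number show the ratio, with benzene libraries on the left and air libraries on the right. Air replicate 5 runs from -1.26 for Mdm2 to 1.19 for Bax, while Trp53inp1 lies between 0.41 and 0.64 in the 6 benzene lungs.

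In lung, 4 of the 10 genes rose with benzene and none fell by limma-trend with Benjamini-Hochberg adjustment over all 15706 genes tested. They were Cdkn1a, Ccng1, Trp53inp1 and Sesn2. Over all genes 5.67% were called, 3.38% as higher and 2.29% as lower. Without air replicate 5 the same 4 genes rose, beside 14.7% of all genes called, 7.63% as higher and 7.02% as lower. The count of genes that fell was 0 by edgeR's quasi-likelihood test as well, and 0 were lower at an unadjusted p under 0.05. The median change over the 10 genes was 0.20 against 0.01 over all genes, and 0.12 against 0 without air replicate 5.

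Cdkn1a encodes p21, the inhibitor of cyclin-dependent kinases that carries out much of the p53 arrest of the cell cycle. Its lung level was 100.05, 105 and 105 CPM (lowest, median, highest of 6) with benzene and 58.8, 84.2 and 86.1 CPM with air. The lowest benzene lung was above the highest air lung, and the lowest air value was that of air replicate 5. The other 5 air lungs lay between 79.4 and 86.1 CPM. The level averaged 103 ± 2.34 CPM in benzene lungs and 79.7 ± 10.5 CPM in air lungs (SD, n = 6 each). The log2 change was 0.38 ± 0.0926 (SE, limma adjusted p = 0.0256), and 0.30 ± 0.0594 without air replicate 5 (adjusted p = 0.0017).

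Ccng1 encodes cyclin G1, a p53 target that recruits a phosphatase to Mdm2. Its lung level was 109.7, 121 and 129 CPM with benzene and 76.2, 96.8 and 109.2 CPM with air. The groups did not overlap, though benzene replicate 3 (109.7 CPM) and air replicate 4 (109.2 CPM) were close. Its log2 change was 0.34 ± 0.0889 (limma adjusted p = 0.0377), and 0.28 ± 0.0692 without air replicate 5 (adjusted p = 0.00973).

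A start of Cdkn1a and of Ccng1 is shown because both rose in lung and each has a promoter window with a pair of the half-sites that p53 binds. The windows come from RefSeq on GRCm38.p6, which has promoter entries for 8 of the 10 genes. The 250 bases before each start were searched on both strands for the p53 consensus half-site, 10 bases long, and capitals mark the matches. A pair means 2 half-sites at most 13 bases apart, with at most 1 mismatch in all. These 8 genes have 11 windows, so a gene can have more than 1 start, and distances are to the start used for the window shown. The Cdkn1a stretch lies at chr17:29090886-29090957, plus strand, with 2 exact half-sites 12 bases apart that end 42 bases before that start. The Ccng1 stretch lies at chr11:40755442-40755501, minus strand, with adjoining half-sites and 1 mismatch, from 195 to 176 bases before the start.
Cdkn1a: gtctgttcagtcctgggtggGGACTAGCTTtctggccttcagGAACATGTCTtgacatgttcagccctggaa
Ccng1: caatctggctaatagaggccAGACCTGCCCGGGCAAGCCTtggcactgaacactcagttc
In the Cdkn1a stretch a further pair overlaps the second half-site. Such a pair is in 0.505% of all 32851 promoter windows and in 2 of the 11 windows of these 8 genes. A single exact half-site is in 7.13% of all windows and in 5 of those 11. These come from 5 of the 8 genes, and 3 of those 5 genes did not pass the test in lung. The windows of Sesn2, Phlda3 and Bbc3 held no exact half-site, and those of Trp53inp1 and Zmat3 were not examined.
Bax: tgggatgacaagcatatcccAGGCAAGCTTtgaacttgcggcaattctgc
Mdm2: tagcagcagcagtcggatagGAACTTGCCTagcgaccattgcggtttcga
Trp53: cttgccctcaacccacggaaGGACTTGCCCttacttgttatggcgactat
These 3 are shown for contrast, and lie at chr7:45467070-45467119 (minus strand), chr10:117710915-117710964 (minus strand) and chr11:69580264-69580313 (plus strand). A match describes letters and is not evidence of binding. Sites outside these windows were not searched, and a link between matches and the lung changes was not tested.

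Trp53inp1 encodes a stress protein that binds p53 and promotes its phosphorylation, and that also acts in autophagy. Its lung level was 119, 130.45 and 139.7 CPM with benzene and 55.0, 89.0 and 104 CPM with air. All 6 benzene lungs were above every air lung, and the lowest air value was that of air replicate 5. The level averaged 130.0 ± 8.87 CPM in benzene lungs and 85.7 ± 16.3 CPM in air lungs (SD, n = 6 each). The log2 change was 0.62 ± 0.126 (limma adjusted p = 0.00862), and 0.50 ± 0.0703 without air replicate 5 (adjusted p = 4.13e-05). It is the gene with the largest change of the 10 in lung with all libraries.

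Sesn2 encodes sestrin 2, which restrains mTORC1 signalling under nutrient and oxidative stress. Its lung level was 15.9, 22.7 and 28.5 CPM with benzene and 12.5, 15.1 and 17.7 CPM with air. Benzene replicate 4 (15.9 CPM) lay within the air range, and the other 5 benzene lungs were above every air lung. This gave a log2 change of 0.51 ± 0.131 (limma adjusted p = 0.0332), and 0.56 ± 0.122 without air replicate 5 (adjusted p = 0.00366), where it was the largest of the 10.

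Cdkn1a, Ccng1 and Trp53inp1 are the genes of the 10 whose lung groups did not overlap, with all 12 lungs and without air replicate 5. Over all genes 6.13% had groups without overlap, and 9.16% without that replicate. The Trp53inp1 call held when any single lung library was left out. The calls of the other 3 genes did not. Without benzene replicate 1, 2, 3, 5 or 6, the adjusted p of Cdkn1a was 0.0641, 0.0516, 0.0611, 0.0541 and 0.0600 in that order. For Ccng1 it was 0.0933, 0.0819, 0.0509, 0.0810 and 0.0898, and for Sesn2 0.0862, 0.0627, 0.0820, 0.0557 and 0.0806. Ccng1 also missed the threshold without air replicate 1 (0.0537), 2 (0.0821), 3 (0.0641) or 6 (0.0550), and Sesn2 without air replicate 1 (0.0783), 2 (0.0626), 3 (0.0661) or 4 (0.0535). With air replicate 5 left out first, all 4 genes stayed past the threshold whichever further lung library was removed, an alternative chosen after seeing the data.

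**Figure D2:**
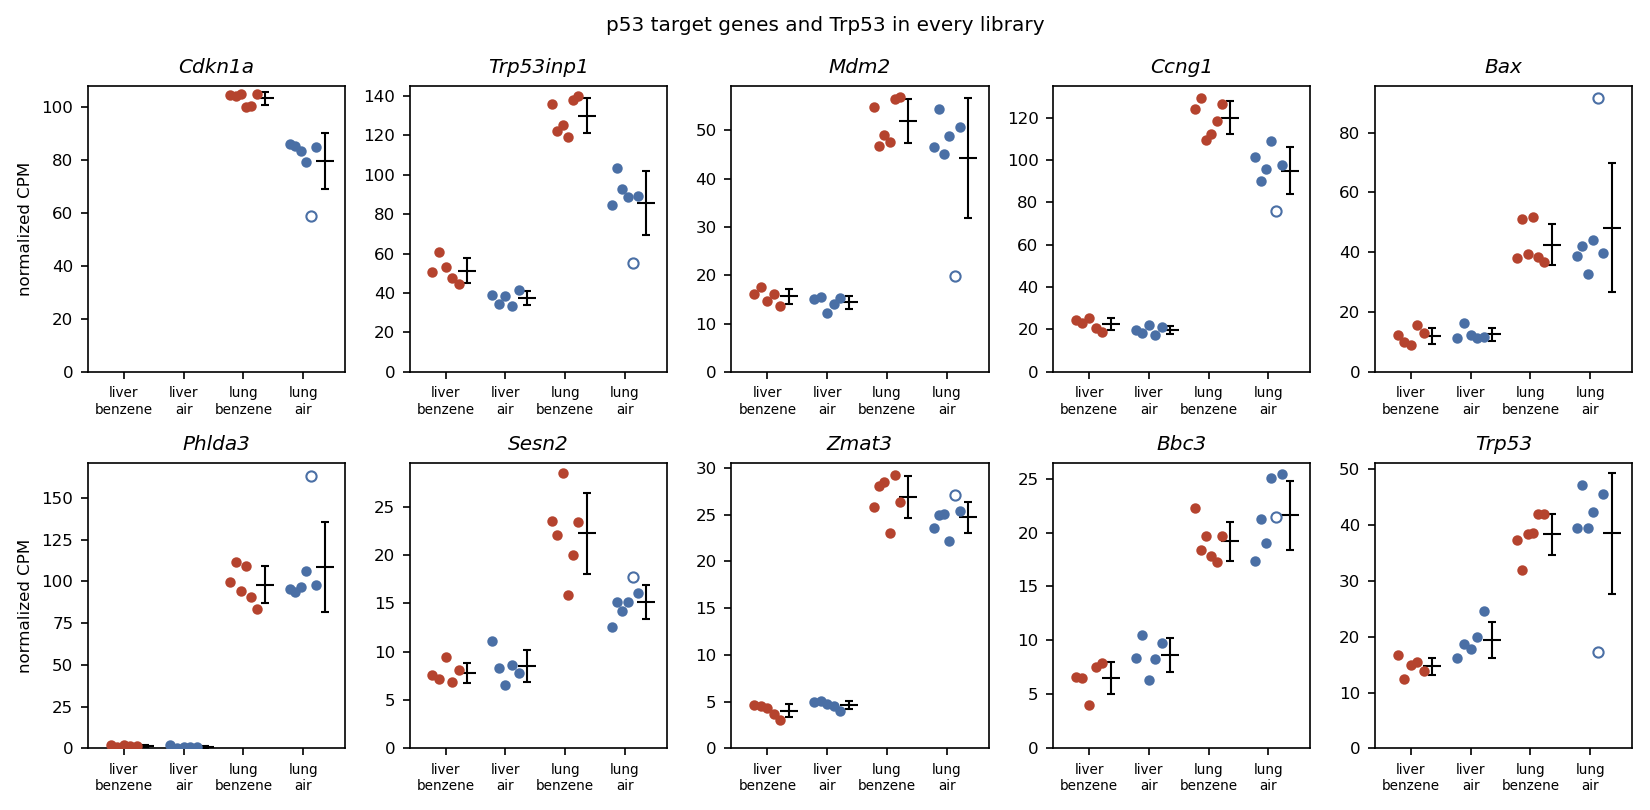
Normalized CPM of each gene in every library, in benzene and air livers and benzene and air lungs. Points are libraries, the open point is lung air replicate 5, and bars to the right are the mean and SD. Lung Cdkn1a, Trp53inp1 and Ccng1 show benzene libraries above every air library, while the liver groups separate for Trp53inp1 alone. Cdkn1a has no liver panel values.

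The apoptosis genes Bax and Bbc3 did not pass the test in lung, and neither did Phlda3. Bax, which permeabilises the mitochondrial outer membrane, was at 36.6, 38.8 and 51.8 CPM with benzene and 32.7, 40.9 and 91.5 CPM with air. Its highest air value was that of air replicate 5, more than 2-fold the other 5, which lay between 32.7 and 43.9 CPM. Its log2 change was -0.10 (limma adjusted p = 0.779), and 0.10 without air replicate 5 (adjusted p = 0.571), so the sign rests on that library. Bbc3 encodes PUMA, a BH3-only protein that frees Bax-type proteins to act. It was at 17.3, 19.0 and 22.3 CPM with benzene and 17.4, 21.3 and 25.4 CPM with air, overlapping ranges with a change of -0.16 (adjusted p = 0.41), and -0.16 without air replicate 5 (adjusted p = 0.367). Phlda3, an inhibitor of Akt signalling that p53 induces, was at 83.3, 96.8 and 112 CPM with benzene and 93.9, 97.1 and 163 CPM with air. The top air value is again air replicate 5. The change was -0.13, and 0.00 with a 95% interval of -0.17 to 0.16 without that library.

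Zmat3 and Mdm2 did not pass the test in lung, and neither did Trp53. Zmat3, an RNA-binding zinc finger protein, was at 23.1, 27.2 and 29.3 CPM with benzene and 22.1, 24.98 and 27.1 CPM with air. Its change was 0.11, with a 95% interval of -0.07 to 0.30 (limma adjusted p = 0.442), and 0.14 without air replicate 5 (adjusted p = 0.295). Mdm2 was at 46.8, 52.0 and 57.0 CPM with benzene and 19.8, 47.7 and 54.4 CPM with air. Air replicate 5, at 19.8 CPM, was far below the other 5, which lay between 45.0 and 54.4 CPM. The Mdm2 change was 0.29 (adjusted p = 0.39), and 0.08 with a 95% interval of -0.09 to 0.24 without that library. Trp53 was at 31.9, 38.5 and 42.0 CPM with benzene and 17.2, 40.9 and 47.2 CPM with air. Its change was 0.06 (adjusted p = 0.884), and -0.15 without air replicate 5 (adjusted p = 0.241), where 4 of 6 benzene lungs were below every air lung.

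The lung libraries also differed by transcript length. Relative to the median of air lungs without replicate 5, the 25% of genes with the longest exons had a median log2 ratio of 0.11, 0.12, 0.07 and 0.11 in benzene replicates 1, 3, 5 and 6, and the 25% with the shortest -0.13, -0.13, -0.11 and -0.17. In benzene replicates 2 and 4 the medians were -0.03 and -0.06 for the longest and 0.04 and 0.06 for the shortest. In air replicate 5 they were -0.16 for the longest and 0.11 for the shortest. The medians of the other air lungs lay from -0.05 to 0.03. Trp53inp1 (6.48 kb of exons) was above every air lung also in benzene replicates 2 and 4, at 122 and 119 CPM, and so were Cdkn1a (3.55 kb), at 104 and 100.05 CPM, and Ccng1 (3.51 kb), at 129 and 112.5 CPM. Sesn2 (3.48 kb) was above every air lung in benzene replicate 2 (22.04 CPM) and not in replicate 4. The part of length in these changes was not tested.

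In liver, 1 of the 9 genes, Trp53inp1, rose with benzene and none fell (limma adjusted p under 0.05 over 11968 genes). Over all genes 1.55% were called, 0.819% as higher and 0.735% as lower. The count of genes that fell was 0 by edgeR as well, while 2 were lower at an unadjusted p under 0.05. The share of all liver genes lower at that p is not given here. The median change over the 9 genes was -0.07 against 0 over all genes.

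Trp53inp1 in liver was at 50.5, 61.0, 53.2, 47.8 and 44.3 CPM with benzene (replicates 1 to 5) and at 38.8, 34.6, 38.4, 33.6 and 41.7 CPM with air. All 5 benzene livers were above every air liver. The level averaged 51.4 ± 6.29 CPM in benzene livers and 37.4 ± 3.33 CPM in air livers (SD, n = 5 each). The log2 change was 0.44 ± 0.0965 (limma adjusted p = 0.0263). It is the gene of the 9 whose liver groups did not overlap, and over all genes 4.25% had groups without overlap. The call did not hold without benzene replicate 1 (adjusted p = 0.0701), 2 (0.0515) or 3 (0.0680), nor without air replicate 2 (0.0933), 3 (0.0675) or 4 (0.0932). Fitting all 22 libraries together gave an adjusted p of 0.113.

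Trp53 itself was at 16.6, 12.5, 15.0, 15.4 and 13.9 CPM in benzene livers and at 16.1, 18.7, 17.8, 19.98 and 24.5 CPM in air livers. Benzene replicate 1 overlapped the air range and the other 4 benzene livers were below it. The log2 change was -0.37, with a 95% interval of -0.63 to -0.12, and did not pass after adjustment (unadjusted p = 0.00667 by limma, adjusted p = 0.171). Bbc3 was at 6.61, 6.51, 4.06, 7.52 and 7.95 CPM with benzene and 8.33, 10.47, 6.37, 8.32 and 9.74 CPM with air. Benzene replicate 3 was the only benzene liver below every air liver. Its change was also -0.37 (unadjusted p = 0.0438 by limma, adjusted p = 0.362).

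Ccng1 in liver was at 24.6, 23.1, 25.3, 20.7 and 18.9 CPM with benzene and 19.5, 18.1, 22.2, 17.5 and 21.2 CPM with air. Its change was 0.18, with a 95% interval of -0.05 to 0.41, and 3 of 5 benzene livers were above every air liver. Mdm2 was at 16.1, 17.5, 14.7, 16.2 and 13.5 CPM with benzene and 15.1, 15.5, 12.1, 14.0 and 15.3 CPM with air, with a change of 0.11 and a 95% interval of -0.13 to 0.34. The groups overlapped for both genes. Sesn2, at 7.58, 7.13, 9.44, 6.83 and 8.06 CPM with benzene and 11.04, 8.31, 6.58, 8.64 and 7.81 CPM with air, changed by -0.10 with a 95% interval of -0.40 to 0.21.

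Bax in liver was at 12.2, 9.93, 8.97, 15.6 and 13.1 CPM with benzene and 11.2, 16.4, 12.4, 11.2 and 11.5 CPM with air (change -0.07). The air livers other than replicate 2 lay within the benzene range. Zmat3 was at 4.65, 4.58, 4.29, 3.63 and 3.00 CPM with benzene and 4.91, 5.08, 4.73, 4.49 and 4.04 CPM with air (change -0.18), with 2 benzene livers below every air liver. Phlda3 was sparse in liver, at 4 to 27 reads a library. It stood at 1.71, 0.543, 2.11, 1.12 and 1.65 CPM with benzene and 1.75, 0.432, 1.03, 0.652 and 0.643 CPM with air. Its change was 0.35, with a 95% interval of -0.16 to 0.86, too wide to place at this depth.

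**Figure D3:**
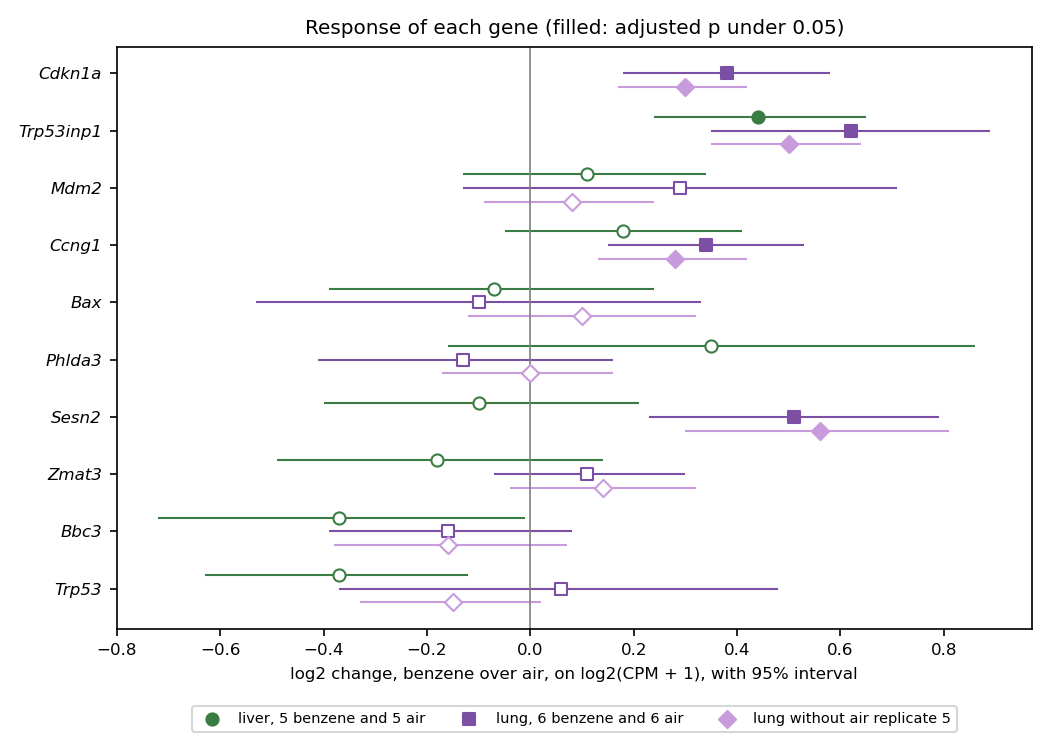
Log2 change of each gene, benzene over air on log2(CPM + 1), with its 95% interval, for liver, for all 12 lungs and for lung without air replicate 5. Filled marks have an adjusted p under 0.05. The filled marks are Trp53inp1 in liver (0.44) and Cdkn1a, Trp53inp1, Ccng1 and Sesn2 in lung (0.38, 0.62, 0.34 and 0.51). Leaving out air replicate 5 shortens the lung intervals of Mdm2, Bax, Phlda3 and Trp53.

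Between tissues, the response of each gene was compared as the liver change minus the lung change, in 1 fit over the 11266 genes in both tables. None of the 9 genes differed after adjustment, by limma or by edgeR, beside 1.41% of all genes (0.719% with a positive difference and 0.692% with a negative one). Without lung air replicate 5 the count was also 0 of 9, beside 2.91% of all genes (1.62% and 1.3%). With all libraries, 0 were higher and 1 was lower at an unadjusted p under 0.05, and the median difference was -0.18 against -0.01 over all genes. Without lung air replicate 5, 0 were higher and 2 were lower at that p, Sesn2 and Zmat3. Sesn2 was the 1 gene with all libraries, with a change of -0.10 in liver and 0.51 in lung. The difference was -0.61, with a 95% interval of -1 to -0.21 (limma unadjusted p = 0.00401, adjusted p = 0.135), and -0.65 without lung air replicate 5 (adjusted p = 0.0566).

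For Trp53inp1, past the threshold in each tissue, the difference was -0.18, with a 95% interval of -0.52 to 0.17. For Ccng1 it was -0.16 (-0.44 to 0.12), so the call in lung and its absence in liver are not shown to be a difference between tissues. Mdm2 had -0.18 (-0.68 to 0.32), and 0.03 (-0.23 to 0.29) without lung air replicate 5. Among the apoptosis and growth genes, Bax had 0.03 (-0.53 to 0.59), Bbc3 -0.21 (-0.63 to 0.20), Phlda3 0.48 (-0.05 to 1) and Zmat3 -0.29 (-0.59 to 0.01). Trp53 had -0.43 (-0.95 to 0.09), and -0.22 (-0.52 to 0.08) without lung air replicate 5. Each pair of numbers in brackets is a 95% interval, and with all libraries the intervals of these 8 genes allow differences of either sign. Without lung air replicate 5 the difference was -0.06 (-0.29 to 0.18) for Trp53inp1, -0.10 (-0.34 to 0.15) for Ccng1 and -0.17 (-0.55 to 0.21) for Bax. It was -0.21 (-0.63 to 0.20) for Bbc3, 0.35 (-0.10 to 0.81) for Phlda3 and -0.32 for Zmat3 (limma unadjusted p = 0.0492, adjusted p = 0.314). Cdkn1a has no liver value to compare.

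The levels of the genes were put in order within each tissue as CPM per kb of exon. In benzene livers Trp53inp1 had 7.93 ± 0.972, Bax 7.60 ± 1.68 and Ccng1 6.41 ± 0.766 CPM per kb, the 3 highest, with neighbours closer than the larger of their SDs. In air livers Bax had 7.96 ± 1.41, Trp53inp1 5.78 ± 0.514 and Ccng1 5.61 ± 0.571 CPM per kb, followed by Trp53 at 4.80 ± 0.787 and Bbc3 at 4.07 ± 0.741. Mdm2 (2.83 ± 0.275) and Sesn2 (2.44 ± 0.471) came next, and Phlda3 (0.578 ± 0.335) and Zmat3 (0.406 ± 0.0352) were lowest. In that order Trp53inp1 and Ccng1, Trp53 and Bbc3, Mdm2 and Sesn2, and Phlda3 and Zmat3 differed by less than the larger of their SDs (n = 5), and the other neighbours by more.

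In lung the order was led by Phlda3. Benzene lungs had 62.9 ± 7.03 CPM per kb of it, and air lungs without replicate 5 had 62.8 ± 3.04. Ccng1 was at 34.2 ± 2.25 CPM per kb in benzene lungs and 28.1 ± 2.03 in those air lungs, Cdkn1a at 29.1 ± 0.658 and 23.6 ± 0.750, and Bax at 27.0 ± 4.42 and 25.03 ± 2.73. Cdkn1a and Bax differed by less than the SD of Bax in each group. Trp53inp1 was at 20.1 ± 1.37 in benzene lungs and 14.2 ± 1.12 in air lungs. Mdm2 was at 10.2 ± 0.912 and 9.66 ± 0.722, Trp53 at 9.49 ± 0.915 and 10.6 ± 0.867, and Bbc3 at 9.03 ± 0.845 and 10.2 ± 1.68. Within each group, neighbours in the order among these 3 genes differed by less than the larger of their SDs. Sesn2 (6.39 ± 1.20 and 4.20 ± 0.384) and Zmat3 (2.35 ± 0.197 and 2.12 ± 0.118) were lowest. The tables were normalized separately, so no level is compared between tissues.

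In GRCm38, Cdkn1a is on chromosome 17, from 29090976 to 29100727, and Trp53inp1 on chromosome 4, from 11156431 to 11174379. Ccng1 and Trp53 share chromosome 11, Bax and Bbc3 chromosome 7, and Trp53inp1 and Sesn2 chromosome 4. Sesn2, from 132492032 to 132510501, overlaps Gm12981 and Bax overlaps Gm45808, each on the same strand. Cdkn1a overlaps AC167363.2 on the other strand. These partners were not analysed here, and whether counting used strand is not given in the sources used here. Reads of the partner could be counted with Cdkn1a if strand was not used. For Sesn2 and Bax they could be counted either way.

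The genes nearest in profile to Trp53inp1 over all 22 libraries were AW549877, Plekhf2 and Ctsc. The measure was the root mean square distance between log2 profiles, each centred in its tissue, which was 0.167, 0.171 and 0.175, against a median of 0.401 over 11266 genes. AW549877 averaged 48.9 ± 6.03 CPM in benzene lungs and 34.1 ± 5.79 CPM in air lungs. For Cdkn1a, over the 12 lungs, the nearest were Mut, Efnb2 and Pard6g, at 0.066, 0.068 and 0.068 against a median of 0.354. Mut averaged 57.4 ± 2.85 CPM in benzene lungs and 42.5 ± 5.22 CPM in air lungs. These distances are descriptions over libraries that include air replicate 5.

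A wider list of 40 p53 targets of growth arrest, apoptosis, DNA repair, metabolism and feedback, none of them among the 10 and known from mouse or human cells, was read in the same fits. In lung 37 were tested, 2 rose and 0 fell, beside the 3.38% and 2.29% of all genes given above. At an unadjusted p under 0.05, 8 were higher and 1 was lower by limma, against 7 and 1 by edgeR. Those shares are for adjusted p. The share of all genes at the unadjusted p is not given here, so the unadjusted counts, also by role, are not read against all genes. The median change was 0.02. By role, 0 of 7 arrest genes, 1 of 11 apoptosis genes, 0 of 6 repair genes, 1 of 10 metabolism and stress genes and 0 of 3 feedback genes rose, with the same counts by edgeR, and 3 apoptosis, 3 repair, 2 metabolism, 0 arrest and 0 feedback genes were higher at an unadjusted p under 0.05 by limma. Gdf15, a secreted stress cytokine, rose by 0.74 on the log2 scale (limma adjusted p = 0.0251) and was at 1.97, 3.17 and 5.16 CPM with benzene and 1.12, 1.68 and 2.04 CPM with air. Pmaip1, the BH3-only protein NOXA, rose by 0.36 (adjusted p = 0.0339), with 22.6, 26.1 and 29.5 CPM with benzene and 19.1, 19.7 and 23.2 CPM with air. In both genes 5 of 6 benzene lungs were above every air lung.

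Without lung air replicate 5, 6 of the 37 rose and 1 fell, beside 7.63% of all genes called as higher and 7.02% as lower in that fit, with a median change of 0.09. Beside Gdf15 (0.70) and Pmaip1 (0.40), these were Sesn1, a second sestrin (0.43), Eda2r, a death-domain receptor (0.67), Rrm2b, a p53-induced ribonucleotide reductase subunit (0.36), and Ddb2, a sensor of UV damage in nucleotide excision repair (0.35). Bid, the BH3-only protein that links death receptors to mitochondria, fell by 0.42. Sesn1 was at 53.8 to 66.8 CPM in benzene lungs and at 33.7 to 48.5 CPM in air lungs other than replicate 5, which had 66.9 CPM. Eda2r had no read in air replicate 5 and 1.03 to 2.62 CPM in the other air lungs, against 2.12 to 4.70 CPM in benzene lungs.

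In liver 29 of the 40 were tested, and 0 rose and 0 fell by limma and by edgeR. Over all liver genes 0.819% were called as higher and 0.735% as lower by limma. Of the 29, 1 was higher and 1 was lower at an unadjusted p under 0.05. The lower one was Gls2, a mitochondrial glutaminase, named after its values were seen. It was at 438.0, 437.5, 437.7, 340.2 and 415 CPM in benzene livers and 554, 481, 505.5, 504.5 and 509 CPM in air livers, without overlap (change -0.31, limma adjusted p = 0.0549). Between tissues 0 of 29 differed by limma, with 5 lower and 0 higher at an unadjusted p under 0.05. Gdf15, at a change of -0.29 in liver and 0.74 in lung, had a difference of -1.03 (adjusted p = 0.0568). It passed by edgeR (adjusted p = 0.0300) and without lung air replicate 5 (adjusted p = 0.0392).

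**Figure D4:**
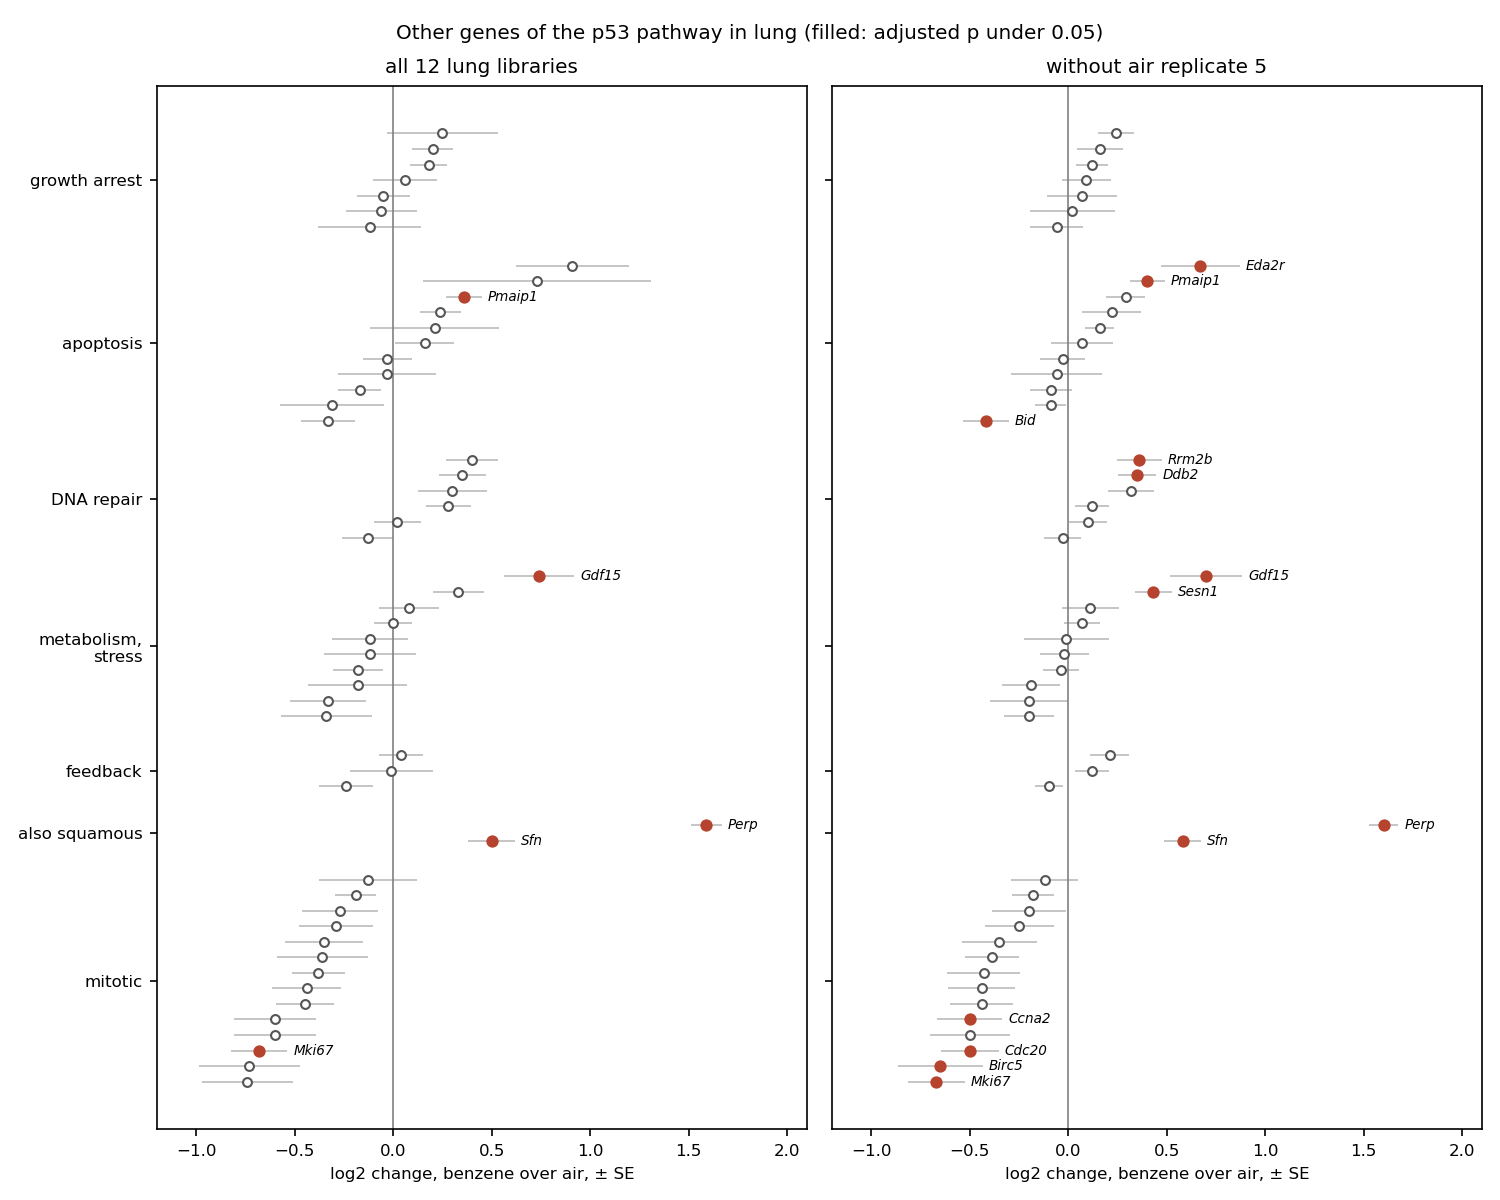
Log2 change in lung, benzene over air, with its SE, of the other genes of the p53 pathway by role, with all 12 libraries on the left and without air replicate 5 on the right. Filled and named points have an adjusted p under 0.05. Perp lies at 1.59, beyond every other gene drawn, and the 14 mitotic genes all lie below 0.

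Perp and Sfn are p53 targets that stratified squamous epithelia also express, Perp as a desmosome protein and Sfn as 14-3-3 sigma. In lung Perp was at 138, 146 and 156 CPM with benzene and 42.3, 48.1 and 54.2 CPM with air, all 6 benzene lungs above every air lung (change 1.59 ± 0.0786, limma adjusted p = 6.25e-09, and 1.60 without air replicate 5). In liver it averaged 96.6 ± 4.37 CPM with benzene and 91.0 ± 7.88 CPM with air (SD, n = 5 each), with overlapping groups and a change of 0.09 (adjusted p = 0.683). The liver change minus the lung change was -1.50 (limma adjusted p = 5.11e-09), where the 9 genes above had differences from -0.61 to 0.48. Sfn was at 63.6, 74.6 and 87.7 CPM in benzene lungs and 43.7, 48.7 and 69.0 CPM in air lungs, where 4 of 6 benzene lungs were above every air lung (change 0.50, limma adjusted p = 0.0235, and 0.58 without air replicate 5). Sfn in liver was not analysed here.

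Squamous markers moved with the lung groups. Of 22 such markers, 19 were tested in lung, and 18 rose and 0 fell. Over all genes 3.38% were called as higher and 2.29% as lower. Their summed level was 4638 to 5056 CPM in benzene lungs and 351 to 457 CPM in air lungs, and Krt13 and Krt4, the paired keratins of non-keratinising squamous epithelium, averaged 1567 ± 83.3 and 1381 ± 50.2 CPM with benzene and 131 ± 23.4 and 107 ± 21.5 CPM with air. Muscle and B-lineage genes moved the other way. Of 12 skeletal muscle genes 2 rose and 7 fell, summing to 1446 to 1720 CPM with benzene and 1978 to 3726 CPM with air (2159 CPM at most without air replicate 5). Of 9 cardiac genes 6 fell (1148 to 1396 CPM with benzene and 1985 to 2788 CPM with air), and of 10 plasma and B cell genes 6 fell (591 to 767 CPM with benzene and 1259 to 1649 CPM with air). Without air replicate 5, 18 squamous genes rose, 2 skeletal genes rose and 8 fell, 9 cardiac genes fell and 6 plasma and B cell genes fell. In that fit 7.63% of all genes were called as higher and 7.02% as lower. The part of these cell types in the lung changes of Cdkn1a, Ccng1, Trp53inp1, Sesn2, Perp and Sfn was not tested.

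In liver, the summed levels of Kupffer cell genes and of hepatocyte genes did not overlap between groups. Of 12 genes of Kupffer cells, the resident macrophages, 8 rose and 0 fell, beside 0.819% and 0.735% of all genes. The sum of these 12 genes was 216 to 296 CPM with benzene and 123 to 145 CPM with air. Among them Clec4f averaged 47.8 ± 6.20 CPM with benzene and 29.4 ± 2.36 CPM with air. Of the 8 hepatocyte genes none passed by limma, 1 fell by edgeR and 3 were lower at an unadjusted p under 0.05. Alb, the highest of them, averaged 59438 ± 4528 CPM with benzene and 74088 ± 1705 CPM with air (SD, n = 5 each). Apoa1, Ttr and Cyp2e1, next in level, averaged 10907 ± 1743, 8708 ± 982 and 7897 ± 528 CPM with benzene. With air they averaged 10979 ± 1354, 9670 ± 1114 and 8155 ± 161 CPM, so Alb had the widest gap of those named. None of the 5 erythroid genes passed by limma, 1 rose by edgeR, and 2 were higher at an unadjusted p under 0.05. The part of these cell types in the liver change of Trp53inp1 was not tested. The squamous keratins Krt4, Krt13 and Krt5 were not analysed here in liver.

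Among 18 regulators of p53 and its relatives, 17 were tested in lung, and 1 rose and 0 fell, a share near the 3.38% of all genes called as higher. The gene was Trp63, the p53 family member that marks basal cells of squamous and airway epithelium, which is also on the squamous marker list. Trp63 was at 4.48, 6.39 and 7.77 CPM with benzene and 2.43, 4.02 and 4.84 CPM with air (change 0.62, limma adjusted p = 0.0481, 0.0532 by edgeR). Without air replicate 5 its change was 0.57 (adjusted p = 0.0246 by limma), again the 1 regulator that rose, beside 7.63% of all genes. Of 14 regulators tested in liver 0 rose and 0 fell by limma and by edgeR. Over all liver genes 0.819% were called as higher and 0.735% as lower by limma. At an unadjusted p under 0.05, 1 of the 14 was lower. That gene was Mdm4, the Mdm2 partner that inhibits p53, named after its values were seen, with a change of -0.34 in liver (adjusted p = 0.222) and 0.34 in lung (adjusted p = 0.214). Its difference between tissues, -0.67, had an adjusted p of 0.121, and was -0.53 with an adjusted p of 0.0498 by limma without lung air replicate 5.

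Mitotic genes, which p21 can lower through the DREAM complex, were the last list. In lung 14 were tested, and 1 fell and 0 rose, beside 2.29% of all genes called as lower. All 14 changes were negative, with a median of -0.41 against 0.01 over all genes, and 8 were lower at an unadjusted p under 0.05. The share of all genes lower at that p is not given here. Mki67, the proliferation marker Ki-67, fell by 0.68 (limma adjusted p = 0.0109). It was at 6.02, 6.93 and 9.32 CPM with benzene and 8.79, 11.7 and 14.6 CPM with air, where 5 of 6 benzene lungs were below every air lung. Without air replicate 5, 4 fell, beside 7.02% of all genes, with Mki67 at -0.67, Birc5 at -0.65, Ccna2 at -0.50 and Cdc20 at -0.50. The part of p21 and of cell types in these lung changes was not tested. In liver 5 were tested, and 0 rose and 0 fell by limma and by edgeR, with 0 at an unadjusted p under 0.05 in either direction. Over all liver genes 0.819% were called as higher and 0.735% as lower by limma.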

How the data were processed

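Per the submitters' processing notes, the authors used fastp 0.20.0, STAR, edgeR 3.10 and GRCm38. The sources used here do not name a counter, annotation, strand setting or low-gene filter. The deposited values, headed CPM by the authors, are normalized signal: each equals a whole read count, within 0.01, over 1 factor per library, so reads were recovered. The authors also deposited a change column (taken as log2, its base not stated) and a p-value for benzene against air, which were not used. The labels name no molecular identifiers, so depth covers counting error only. The members, gene lists and rules were chosen with earlier results of these data known.

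The filter kept genes reaching 1 in 5 libraries (liver) or 6 (lung). The test was limma-trend on log2(value + 1), run in R 4.3.3 with limma 3.58.1, and calls had a Benjamini-Hochberg adjusted p under 0.05. No share of all genes is given at an unadjusted p under 0.05, so counts at that p are not read against all genes. Liver minus lung was 1 contrast over genes in both tables. Alternatives were TMM scaling, edgeR 4.0.16 and DESeq2 1.42.0 on recovered reads, a pseudocount of 0.1, no filter, array weights, a replicate block, 1 fit over all 22 libraries and leaving out libraries. Tests with edgeR without lung air replicate 5, and without it and a further library, were chosen after seeing the data. Scripts were tested on simulated data. Exon lengths come from GENCODE M21 (12255 of 12259 liver and 15955 of 15971 lung genes matched). Named genes are the 10 members, wider p53 genes past the threshold in a tissue, Perp, Sfn, leading markers and the 3 nearest profiles of Trp53inp1 and Cdkn1a.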

Additional observations from a re-analysis of the deposited data

Results flagged for a closer look

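Lung air replicate 5 lay far from the other 5 air lungs for 6 of the genes examined. Cdkn1a was 58.8 CPM there (79.4 to 86.1 in the others), Mdm2 19.8 CPM (45.0 to 54.4) and Trp53 17.2 CPM (39.4 to 47.2). Bax was 91.5 CPM (32.7 to 43.9), Phlda3 163 CPM (93.9 to 106) and Pmaip1 23.2 CPM (19.1 to 19.9). The same library had 894 genes without a read, against 17 to 61 in the other air lungs, and the part of this in the 6 values was not tested.

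Bax in liver air replicate 2 was 16.4 CPM, against 11.2 to 12.4 CPM in the other air livers. Gdf15 in liver air replicate 1 was 6.84 CPM, against 12.3 to 13.5 CPM. In all, 8 of 56 groups of libraries had a value this far from the others, 6 of them in lung air replicate 5. Chance gives about 5% of independent groups, and values of different genes in 1 library are not independent. How many of all genes would be flagged in that library was not counted.

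The response of Perp differed between tissues, with a liver change minus lung change of -1.50 by limma (adjusted p = 5.11e-09), with 6 of 6 benzene lungs and 0 of 5 benzene livers above the air range of their tissue.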

How the results depend on the processing

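Counts of p53 genes past the threshold in liver (1), in lung (4) and between tissues (0) kept their size under TMM scaling, edgeR, DESeq2, a pseudocount of 0.1 and no filter. With array weights liver had 1, lung had 4 and 1 gene, Sesn2, differed between tissues (-0.63, limma adjusted p = 0.0398). One fit over all 22 libraries gave 0 in liver and 3 in lung, where Cdkn1a is left out of the shared genes. With single libraries left out the count was 0 to 1 in liver and 1 to 4 in lung. The cause was not tested.

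With the replicate block, liver had 0 p53 genes past the threshold (Trp53inp1 adjusted p = 0.0563 by limma) and lung 0 (Trp53inp1 0.0515, Cdkn1a 0.0855, Sesn2 0.125, Ccng1 0.139). All genes came to 414 in lung and 59 between tissues with the block. The labels do not say whether equal numbers pair the samples. Same-number correlations of deviations ran from -0.13 to 0.19 in liver and from -0.36 to 0.10 in lung. In liver 1 of 5 and in lung 0 of 6 libraries correlated best with their own number. So few pairs cannot settle whether the block is needed.

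The count over all genes was 186 in liver, 891 in lung and 159 between tissues. By DESeq2 it was 318, 1669 and 377, and with array weights 461, 3215 and 507. One fit over all libraries gave 74 in liver and 489 in lung, over fewer genes. Leaving out libraries gave 99 to 271 in liver, 587 to 2951 in lung and 89 to 328 between tissues, and edgeR without lung air replicate 5 gave 2262 in lung and 330 between tissues.

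Genes that were not called changed sign in places. Lung Trp53 was -0.01 by edgeR, -0.01 by DESeq2, -0.11 with array weights, -0.15 by edgeR without air replicate 5 and -0.18 to 0.13 with libraries left out. Lung Bax was 0.02 with array weights, 0.11 by edgeR without air replicate 5 and -0.19 to 0.14 with libraries left out. Lung Phlda3 was 0 by edgeR without air replicate 5 and -0.16 to 0.04 with libraries left out, and liver Bax was -0.17 to 0.02. The difference between tissues of Bax was -0.15 with array weights, -0.16 by edgeR without lung air replicate 5 and -0.17 to 0.12 with libraries left out, and that of Mdm2 was 0.04 by that edgeR test and -0.25 to 0.03 with libraries left out. The cause was not tested. Depth limits Phlda3 in liver, with 4 to 27 reads a library.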
